A study of Mus musculus with 3 samples.

Results

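The 4 myogenic regulatory factors Myf5, Myod1, Myog and Myf6, the fusion gene Mymk and the paired-box genes Pax3 and Pax7 were followed over 3 tissue sections of mouse embryos. The genes were taken by their symbols, and all 7 were found among the 32285 genes of each count matrix. Each section was 10 µm thick, from OCT-embedded, snap-frozen tissue, and lay on a Visium slide, whose barcoded spots are 55 µm across, lie 100 µm apart and can each take up RNA from several cells. There was 1 section at each of E11.5, E12.5 and E13.5, the stage being given by the section's title, and no replicate of a stage. Strain, genotype, sex, the number of embryos and any treatment are not stated in the labels, so a difference between sections cannot be told apart from a difference between embryos, cutting planes or libraries.

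In the mouse, the 4 regulatory factors are basic helix-loop-helix proteins that bind E-boxes, short DNA motifs with the letters CANNTG, and commit mesodermal cells to skeletal muscle. Myf5 and Myod1 act mainly in determining myoblasts, Myog in their differentiation, Myf6 (also called Mrf4) in both steps, and Mymk encodes myomaker, the membrane protein that myoblasts need in order to fuse. Pax3 and Pax7 act upstream of them in muscle progenitors, Pax3 mainly in the somite and in cells that migrate into the limb and Pax7 in the progenitors of later muscle. Both paired-box genes are also made in the dorsal neural tube and in cranial neural crest and its derivatives, so that a spot with their RNA need not hold muscle.

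Myog is the gene of the set whose control links the others, because its promoter is known to be driven by the regulatory factors and by MEF2 proteins. RefSeq's promoter table (GRCm38.p6) matched 3 of the 7 genes, and the windows of Myf5 and Pax7 lay inside their own gene records. The Myog sequence, chr1:134289754-134290003 on the plus strand, is shown since Myog was the gene that varied with the muscle genes most closely. Capitals mark the matches to CANNTG and to the MEF2 core, spelled TA, then 4 letters that are each A or T, then TA.
Myog promoter: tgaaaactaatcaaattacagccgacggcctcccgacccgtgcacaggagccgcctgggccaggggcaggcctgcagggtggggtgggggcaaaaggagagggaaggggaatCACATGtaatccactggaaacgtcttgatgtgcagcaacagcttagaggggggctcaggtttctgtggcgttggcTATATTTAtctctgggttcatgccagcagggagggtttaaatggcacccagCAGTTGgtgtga
The window holds 2 E-box matches and 1 MEF2 core match, read on both strands and with no base in 2 matches. E-box letters are common, since 66.2% of 32851 windows of this length in the table held at least 1 match and 31.8% at least 2, while 8.56% held the MEF2 core. In the same annotation Myf5 (chr10:107482908-107486927) and Myf6 (chr10:107492848-107494723) are neighbours with 5920 bases between their records. Myod1 lies at chr7:46376474-46379092, Mymk at chr2:27061636-27072161, Pax3 at chr1:78101267-78197136 and Pax7 at chr4:139737059-139833530.

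Spots with at least 1000 UMIs were used (unique molecular identifiers, 1 for each RNA molecule captured), which left 1561, 1014 and 1360 spots with 44358610, 25490744 and 28750314 UMIs at the 3 stages. Where 3 values follow each other, the first is of E11.5, the second of E12.5 and the third of E13.5. Between 434 and 704 spot barcodes were shared by any pair of sections, as the slides print the same barcodes. The tissue is labelled Bone, and bone genes, chosen after the data were seen, were read in CPM (a gene's UMIs over all UMIs of the spots summed, scaled to parts per 1000000). Runx2 had 2.64, 11.7 and 7.79 CPM at the 3 stages, Sp7 1.62, 1.02 and 3.83, Bglap 0.631, 0.510 and 0.522 and Dmp1 0.158, 0.314 and 1.84. Ibsp, a bone matrix protein, had 1, 1 and 759 UMIs, the last being 26.4 CPM, and Col10a1 of hypertrophic cartilage 0, 0 and 195 UMIs. The cartilage list had 620, 1888 and 4380 CPM. A spot was put in the neural context when it lay in the top 10% of its section for Sox2, a gene of neural progenitors, or for Tubb3, a tubulin of neurons. It was put in the muscle context when it lay in the top 10% for the mean of 6 sarcomere genes (Mylpf, Myl1, Myh3, Myh8, Tnnt3 and Tnnc2). The neural context held 298, 177 and 196 spots, the muscle context 152, 98 and 133, both contexts 4, 3 and 3, and the rest 1107, 736 and 1028. A context is a range of a score, and 40, 12 and 55 spots lay within 0.1 SD of the muscle boundary, the last spot inside scoring 0.204, 1.73 and 4.12 and the next outside 0.203, 1.73 and 4.12.

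The contexts did not hold the same tissue at each stage. The sarcomere list that chose the muscle context had 665, 5379 and 15423 CPM there at the 3 stages, against 17.7, 291 and 3626 CPM in the rest. At E11.5 the muscle context also held heart, since the 6 genes of the heart list reached 7082 CPM there against 378 CPM in the rest. Of its 152 spots, 69 had at least 1000 CPM of that list, and those 69 held 3 Myog, 2 Mymk, 2 Pax3 and 1 Pax7 UMIs and no UMI of Myf5, Myod1 or Myf6. At E13.5 the neural context lacked genes of the neural tube: Sox1 and Pax6 had 0 UMIs, 7 of the 13 dorsal neural tube genes were at 0, and the neural check list had 1151 CPM against 3097 and 3069 CPM at E11.5 and E12.5. The sensory ganglion list had 802 CPM and the cartilage list 3931 CPM in the E13.5 neural context.

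Over all spots, the 4 regulatory factors and Mymk were higher at each later stage. Myf5 had 0.564, 4.12 and 9.88 CPM at the 3 stages (25, 105 and 284 UMIs), and Myod1 had 3.74, 36.5 and 77.0 CPM. Myog had 11.2, 106 and 269 CPM from 496, 2704 and 7748 UMIs. For these 3 genes the exact 95% Poisson intervals, which cover counting error only, did not overlap between any stages. Myf6 had 0.225, 0.549 and 7.51 CPM (10, 14 and 216 UMIs), so that it stood apart at E13.5 while its intervals at E11.5 and E12.5 overlapped. Mymk had 1.38, 21.3 and 87.5 CPM, with intervals apart at each stage. As the stages have 1 section each, no test was made. The E13.5 level over the E11.5 level was 17.5 for Myf5 (95% interval 11.6 to 27.5), 20.6 for Myod1 (17.6 to 24.2), 24.1 for Myog (22.0 to 26.4), 33.3 for Myf6 (17.8 to 70.5) and 63.6 for Mymk (49.4 to 83.4), the intervals of Myf6 and Mymk overlapping. In these summed spots, more muscle cells and more RNA per muscle cell cannot be told apart.

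The paired-box genes took other courses. Pax3 had 10.8, 6.16 and 1.18 CPM at the 3 stages from 481, 157 and 34 UMIs, its intervals not overlapping, and its E13.5 level was 0.109 of its E11.5 level (0.0747 to 0.155). Neural RNA differed between the sections too: the dorsal neural tube list had 181, 189 and 42.7 CPM over all spots, 5 of its 13 genes being at 0 at E13.5, and the neural check list 1019, 1006 and 380 CPM, and their part in the Pax3 course was not tested. Pax7 had 7.48, 5.69 and 12.9 CPM from 332, 145 and 372 UMIs, lowest at E12.5, and its E13.5 level was 1.73 of its E11.5 level (1.49 to 2.01). So 5 of the 7 genes were at least 2-fold higher at E13.5, where 14.6% of the 15232 genes with at least 50 UMIs over these sections were, and 1 of 7 was at least 2-fold lower, where 7.96% of genes were.

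**Figure D1:**
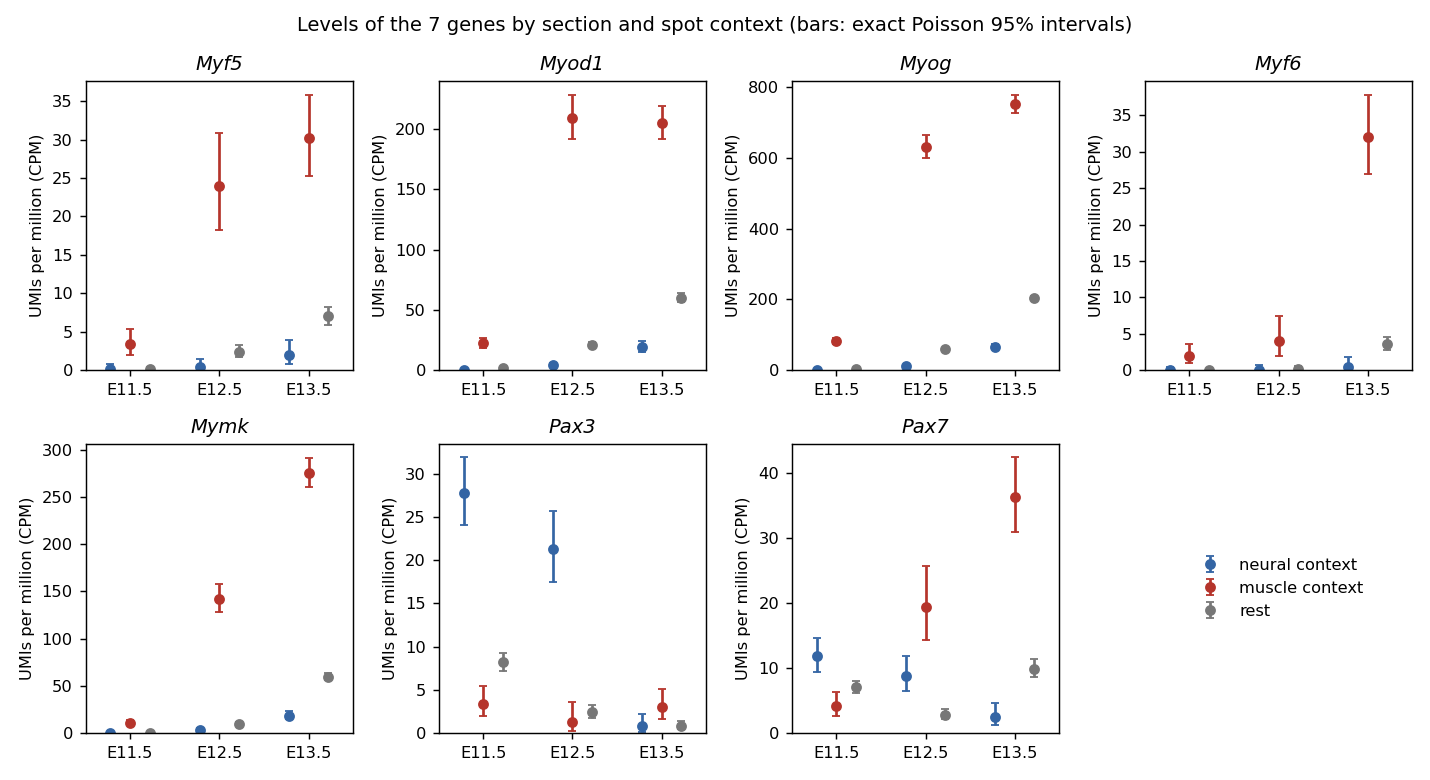
Levels of the 7 genes in CPM (linear axes, each gene on its own scale) by section, with the neural context in blue, the muscle context in red and the rest in grey. Points are the summed level of 1 section and bars exact 95% Poisson intervals. The regulatory factors and Mymk are highest in the muscle context in each section, and Pax3 in the neural context at E11.5 and E12.5. Pax7 is highest in the neural context at E11.5, heart-rich muscle spots included, and in the muscle context at E12.5 and E13.5.

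Within each section the regulatory factors were concentrated in the muscle context. Myf5, the earliest of the factors in the mouse somite, had 3.37, 23.9 and 30.2 CPM in muscle spots at the 3 stages, against 0.219, 2.41 and 7.01 CPM in the rest. Myod1 had 22.4, 210 and 205 CPM in muscle spots and 1.57, 21.1 and 60.2 CPM in the rest. Myog had 81.5, 631 and 752 CPM in muscle spots and 2.63, 59.2 and 204 CPM in the rest. The muscle value lay above that of the rest in each of the 3 sections for all 3 genes, with intervals that did not overlap within a section. Myf6 had 1.98, 4.05 and 32.05 CPM in muscle spots and 0, 0.224 and 3.60 CPM in the rest, all 10 of its E11.5 UMIs lying in 6 muscle spots. Mymk had 10.9, 142 and 276 CPM in muscle spots and 0.157, 9.63 and 59.7 CPM in the rest. Myf6 and Mymk, too, were higher in muscle spots in 3 of 3 sections.

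**Figure D2:**
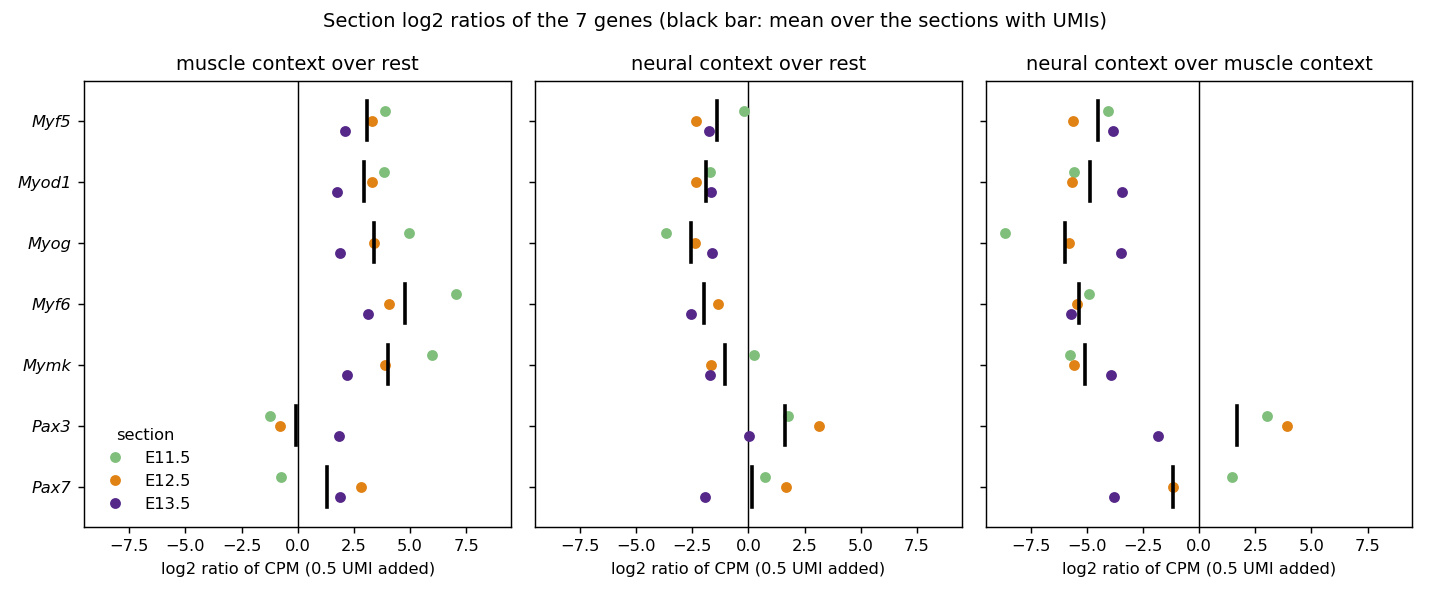
Log2 ratio of CPM, with 0.5 UMI added, of muscle context over rest, neural context over rest and neural over muscle context, for the 7 genes. Points are the 3 sections by colour and the black bar is their mean (2 sections for Myf6 in the neural context over the rest, which had no UMI at E11.5). The first 5 genes lie right of 0 in each section in the left panel and left of 0 in the right panel, while Pax3 and Pax7 lie on different sides by section.

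The mean section log2 ratio of muscle context over rest was 3.10 ± 0.91 for Myf5, 2.97 ± 1.07 for Myod1, 3.42 ± 1.53 for Myog, 4.76 ± 2.04 for Myf6 and 4.03 ± 1.90 for Mymk (SD, n = 3 sections). A test used the 12 sums of section and context, with the sections as blocks. In the quasi-likelihood test of edgeR, with p adjusted by Benjamini-Hochberg over 13747 genes, 5 of the 7 genes were higher in the muscle context than in the rest at an adjusted p under 0.05, against 1.39% of all genes higher. They were Myf5 (log2 fold change 3.09, adjusted p = 0.00351), Myod1 (3.07, 0.00494), Myog (3.64, 0.0133), Myf6 (4.08, 0.00596) and Mymk (3.71, 0.00378). Sarcomere genes chose the muscle spots and are read from the same spots, so the difference describes a shared place. These calls were lost without the E12.5 section or without the block, and that of Myf6 also without E13.5 (5.03, adjusted p = 0.0514). Without E12.5 no gene of the table was called (808 had an unadjusted p under 0.05) and the 5 adjusted p-values were 0.365 to 0.539 at log2 fold changes of 2.89 (Myf5), 2.87 (Myod1), 3.79 (Myog), 4.06 (Myf6) and 3.59 (Mymk), close to those above. Without the block, again 0 genes were called (441 at an unadjusted p under 0.05). With the heart-rich spots moved out of the muscle context at E11.5, an alternative chosen after the data were seen, the 5 stayed past the threshold and the E11.5 levels of muscle spots were 6.93 (Myf5), 46.1 (Myod1), 166 (Myog), 4.08 (Myf6) and 21.6 CPM (Mymk) over 83 spots.

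The muscle excess narrowed with stage. The ratio of muscle context to rest was 15.4, 9.93 and 4.31 for Myf5 at the 3 stages, and 14.3, 9.93 and 3.40 for Myod1. For Myog it was 31.0 (24.4 to 39.7), 10.7 (9.86 to 11.55) and 3.69 (3.53 to 3.87), and for Mymk 69.7, 14.8 and 4.62. The share of a gene's UMIs in the muscle context was 82.9%, 57.6% and 42.4% for Myog, and the rest held 16.9%, 39.1% and 53.3%. The sarcomere list itself was at 3626 CPM in the rest at E13.5, and 1359 of the 1360 spots of that section had a score above 0, against 629 of 1561 at E11.5, so the rest at E13.5 was not free of muscle. The part of that spread in the narrowing was not tested.

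Bins of the sarcomere score showed the same courses without the 10% boundary. At E13.5 Myog had 820, 677, 517, 277 and 58.2 CPM in the top 5%, the next 5%, the next 10%, the next 20% and the lower 60% of spots. At E11.5 the same bins had 140, 16.4, 4.80, 2.72 and 1.47 CPM. Myog thus fell off steeply beyond the top 5% at E11.5 and slowly at E13.5. The upper bins at E11.5 also held the heart-rich spots of the muscle context, which had few Myog UMIs. Their part in the E11.5 courses was not tested. Myod1 at E13.5 had 211, 198, 159, 81.2 and 15.7 CPM, nearly level over the top bins, and at E12.5 245, 171, 87.2, 21.6 and 5.62 CPM. Pax7 peaked below the top in both later sections, with 17.6, 22.3, 11.01, 2.73 and 3.54 CPM at E12.5 and 31.6, 41.3, 27.3, 12.8 and 2.31 CPM at E13.5. The Poisson intervals of its first and second bins overlapped in both sections. Pax3 ran the other way at E11.5, with 3.39, 3.59, 7.54, 7.47 and 14.4 CPM from the top bin to the lowest.

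**Figure D3:**
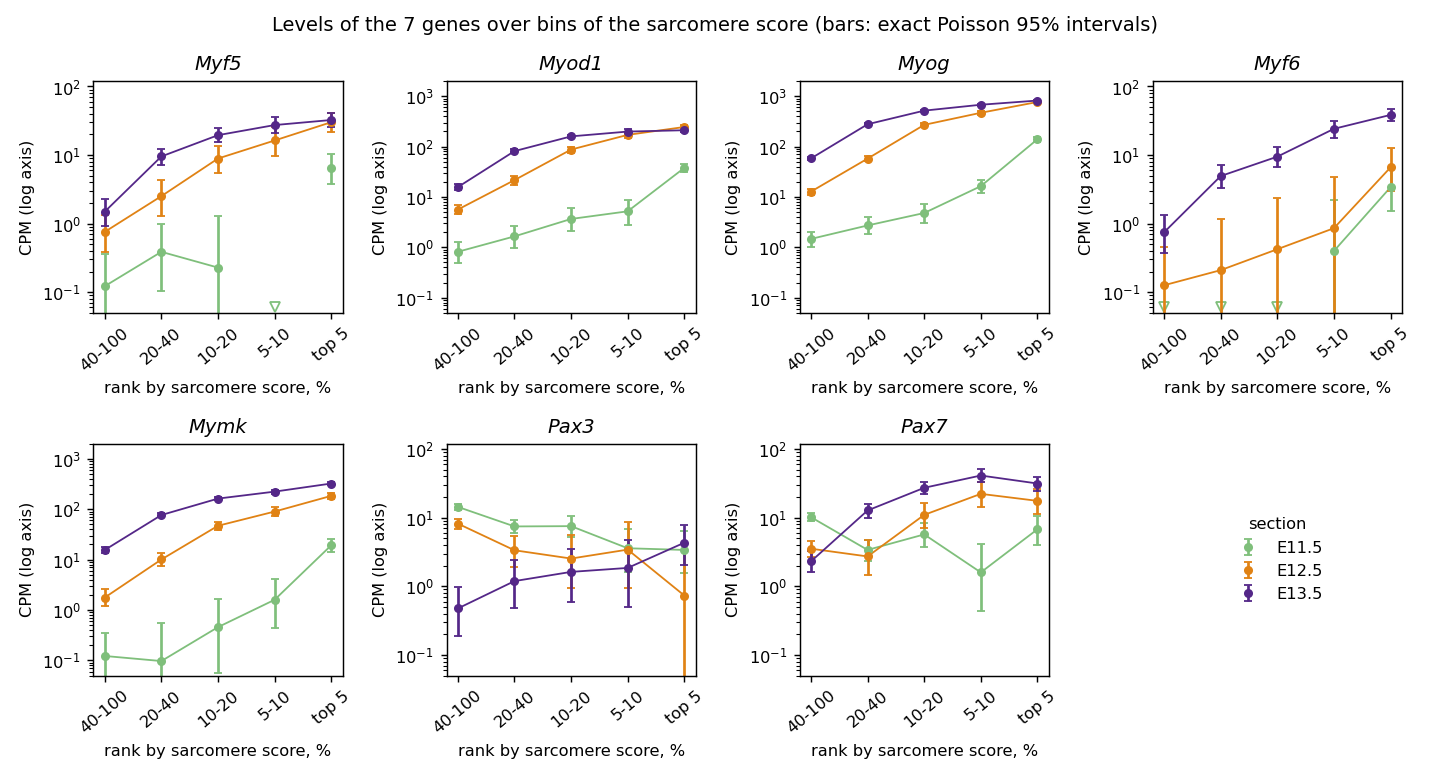
CPM of the 7 genes (log axis) over bins of spots ranked by the sarcomere score, from the lower 60% on the left to the top 5% on the right, with 1 colour per section. Bars are exact 95% Poisson intervals and open triangles mark bins with 0 UMIs. Myog climbs over all bins in each section, and Pax3 at E11.5 and E12.5 is highest in the lowest bin, with 14.4 CPM at E11.5.

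Within muscle spots the factors did not move together from E12.5 to E13.5. The E13.5 level over the E12.5 level was 0.978 for Myod1 (0.876 to 1.09) and 1.26 for Myf5 (0.923 to 1.75), both intervals holding 1. It was 1.19 for Myog (1.12 to 1.27), 1.94 for Mymk (1.72 to 2.19), 1.87 for Pax7 (1.35 to 2.64) and 7.91 for Myf6 (4.17 to 16.9). Among Myod1, Myog and Mymk the ratio rose in that order, but the other regulatory factors did not follow a sequence from determination to fusion. The ratio of Myf5, also a determination gene, lay above that of Myog with overlapping intervals, and that of Myf6 lay above that of Mymk. Against Myog over all spots, Mymk had 12.3, 20.1 and 32.5 UMIs per 100 Myog UMIs at the 3 stages, and in muscle spots 13.4, 22.5 and 36.7. Myod1 had 33.5, 34.4 and 28.6 UMIs per 100 Myog UMIs and Myf5 15.1, 11.3 and 12.8 per 100 Myod1 UMIs, so these ratios moved less than that of Mymk. Myf6 had 2.02, 0.518 and 2.79 UMIs per 100 Myog UMIs, lowest at E12.5 on 14 UMIs.

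The regulators and the contractile genes changed at different rates. Per 1000 UMIs of the sarcomere list over all spots, Myog had 123, 141 and 52.4 UMIs at the 3 stages, and Myod1 41.0, 48.6 and 15.0. Mymk had 15.1, 28.4 and 17.0. Relative to sarcomere RNA, Myog and Myod1 were lower at E13.5 than at either earlier stage, while their CPM were highest there. The E11.5 denominator holds some sarcomere RNA of the heart-rich spots, whose sarcomere list had 328 CPM against 1020 CPM in the other 83 muscle spots.

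Pax3 and Pax7 divided between neural and muscle contexts, and differently from each other. Pax3 had 27.8, 21.4 and 0.745 CPM in neural spots at the 3 stages, against 3.37, 1.22 and 2.98 CPM in muscle spots and 8.17, 2.41 and 0.839 CPM in the rest. It was highest in neural spots at E11.5 and E12.5 and in muscle spots at E13.5, where its counts were 3, 13 and 17 UMIs in neural spots, muscle spots and the rest. Pax7 had 11.8, 8.82 and 2.48 CPM in neural spots, against 4.16, 19.5 and 36.4 CPM in muscle spots and 7.01, 2.80 and 9.87 CPM in the rest. It was highest in neural spots at E11.5 and in muscle spots at E12.5 and E13.5, with intervals of the neural and muscle spots apart in each section. Without the heart-rich spots, Pax7 in E11.5 muscle spots was 8.15 CPM (4.98 to 12.6), which overlaps the neural interval (9.47 to 14.6).

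As ratios, Pax3 in neural over muscle spots was 8.25 (5.02 to 14.4) at E11.5, 17.6 (5.85 to 86.5) at E12.5 and 0.250 (0.0458 to 0.911) at E13.5. The same ratio of Pax7 was 2.84 (1.75 to 4.82), 0.453 (0.295 to 0.695) and 0.0682 (0.0321 to 0.129), lower than that of Pax3 in each section, with overlapping intervals at E13.5. Without the heart-rich spots the E11.5 ratio was 4.55 (2.69 to 8.28) for Pax3 and 1.45 (0.885 to 2.49) for Pax7, the interval of Pax7 then holding 1. Over the 3 sections the mean log2 ratio was 1.70 ± 3.09 for Pax3 and -1.16 ± 2.64 for Pax7 (SD, n = 3). The edgeR quasi-likelihood test called neither gene between neural and muscle spots, with log2 fold changes of 1.97 (adjusted p = 0.140) for Pax3 and -1.24 (adjusted p = 0.303) for Pax7. Without the E13.5 section, whose neural context held no Sox1 or Pax6, Pax3 passed the test in neural over muscle spots (3.34, adjusted p = 0.00157) and in neural spots over the rest (2.34, adjusted p = 0.00249), against 2.06 and an adjusted p of 0.0901 over the rest with all sections. In muscle spots over the rest neither passed, at 0.09 (adjusted p = 0.999) for Pax3 and 1.67 (adjusted p = 0.421) for Pax7. With the neural context taken from Sox2 alone, Pax3 passed against muscle spots (3.10, adjusted p = 0.0220). With Tubb3 alone, Pax7 was lower in neural than in muscle spots (-2.74, adjusted p = 0.0366), so these calls depend on which neural gene defines the context and, for Pax3, on the E13.5 section.

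The 5 muscle genes were low in neural spots. Myog had 0.138, 11.2 and 66.6 CPM in neural spots at the 3 stages, against 2.63, 59.2 and 204 CPM in the rest. Myod1 had 0.413, 4.11 and 19.1 CPM in neural spots, against 1.57, 21.1 and 60.2 CPM in the rest. Both were lower in neural spots in 3 of 3 sections, by a mean section log2 ratio of -2.56 ± 1.04 for Myog and -1.90 ± 0.37 for Myod1 (SD, n = 3). By edgeR's test against the rest, 2 of the 7 genes were lower in neural spots, against 3.79% of all genes lower and 8.62% higher: Myod1 (-1.86, adjusted p = 0.0301) and Myf5 (-1.87, adjusted p = 0.0377). Both calls were lost without E11.5 (Myod1 -1.92, adjusted p = 0.0792, and Myf5 -2.06, 0.0929) and without E12.5 (-1.61, 0.462, and -1.53, 0.535), and that of Myf5 also without E13.5 (-2.05, 0.0620). Both were also lost with the heart-rich spots moved out (0.0524 and 0.0576) and with Sox2 alone (-1.49, 0.192, and -0.99, 0.515). Against muscle spots, 5 of the 7 were lower in neural spots, where 8.86% of all genes were: Myf5 (-4.96), Myod1 (-4.93), Myog (-5.58), Myf6 (-6.78) and Mymk (-5.26), with adjusted p-values between 0.000169 and 0.000532. Without E12.5, Myog missed the threshold here (adjusted p = 0.0520). Myf6 had 0 UMIs in neural spots at E11.5 and E12.5, where 3 counts would have been 0.413 and 0.588 CPM.

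The neural context itself was split by its 2 defining genes. At E11.5 Pax3 had 64.7 CPM in spots high for Sox2 only and 4.94 CPM in spots high for Tubb3 only, a ratio of 13.1 (8.38 to 21.5), and at E12.5 it had 42.6 and 4.32 CPM, a ratio of 9.87 (5.33 to 19.96). Pax7 had 30.2 CPM in Sox2-only and 1.12 CPM in Tubb3-only spots at E11.5, a ratio of 26.9 (11.1 to 85.3), and 17.3 and 3.60 CPM at E12.5, a ratio of 4.80 (2.28 to 11.01). Both genes were thus higher in spots high for the progenitor gene only than in spots high for the neuron gene only in these sections. Spots high for both Sox2 and Tubb3 are not part of these ratios. At E13.5 Pax3 had 2 UMIs in Sox2-only and 0 in Tubb3-only spots, and Pax7 3 and 7 UMIs. Sox2-only spots at E11.5 were shallower, with a median of 15033.5 UMIs against 31525.5 in Tubb3-only spots.

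Inside the neural context, spots with Pax3 had more dorsal neural tube RNA. The 103 neural spots with a Pax3 UMI at E11.5 had 450 CPM of the dorsal neural tube list against 175 CPM in the 195 without, 206 against 33.2 CPM of Msx3, a homeobox gene of the dorsal neural tube, and 276 against 77.4 CPM of Sox2, which helped to choose the context. The ventral list ran the other way, with 41.7 CPM in spots with Pax3 and 77.8 CPM in those without, and so did the sensory ganglion list, with 100.6 and 286 CPM. At E12.5 the dorsal list had 565 CPM in 50 neural spots with Pax3 and 171 CPM in 127 without. Pax7 neural spots were alike, with 490 against 205 CPM of the dorsal list at E11.5 and 554 against 221 CPM at E12.5. These are sums over spots of 1 section each and carry no test.

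Outside both contexts lay the spots with the most Pax7 at E11.5. The rest held 67.5% of its E11.5 UMIs, and its 10 highest spots, with up to 19 UMIs in a spot, were all in the rest. The 98 such spots with a Pax7 UMI had 146 CPM of Alx1, a homeobox gene of frontonasal mesenchyme, against 41.7 CPM in the 1009 without. In the same spots the whole list of dermis, limb and face mesenchyme had 309 against 259 CPM, the dorsal neural tube list 261 against 176 CPM and Msx3 24.7 against 8.20 CPM. In the 78 spots highest for Alx1, Pax7 had 34.2 CPM (71 UMIs) and Pax3 15.4 CPM (32 UMIs). Pax3 lay outside both contexts too, the rest holding 261 of its 481 E11.5 UMIs and 5 of its 10 highest spots. Alx1 had 80.8 CPM in the 161 spots of the rest with a Pax3 UMI against 44.7 CPM in the 946 without. The surface epithelium list had 88.7 CPM in the spots with Pax7 and 31.5 CPM in those without. At E13.5 the rest looked different: its 144 spots with a Pax7 UMI had 6951 CPM of the sarcomere list against 2852 CPM in the 884 without, and 0.784 against 2.13 CPM of Alx1. The medians of 27121 and 18177.5 UMIs per spot differed in the same direction at E13.5, and the part of depth was not tested.

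Muscle spots with Pax3 at E11.5 were high for a somite gene. The 15 muscle spots with a Pax3 UMI had 111 CPM of Dmrt2, a factor of the dermomyotome, against 17.8 CPM in the 137 without, and 1118 against 7728 CPM of the heart list. Pax7 spots of the same context, 16 in number, had 78.4 CPM of Dmrt2 against 20.7 CPM in the 136 without. Without the heart-rich spots, Pax3 had 6.11 and Pax7 8.15 CPM in E11.5 muscle spots, a muscle to rest ratio of 0.748 (0.413 to 1.26) for Pax3 and 1.16 (0.696 to 1.84) for Pax7. With those spots the ratios were 0.412 and 0.594, so the lower muscle value at E11.5 moved with the heart spots.

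The balance of the pair is given by the share of Pax7 in the UMIs of Pax3 plus Pax7. In neural spots it was 29.9% (24.6 to 35.5%) at E11.5, 29.2% (22.2 to 37.1%) at E12.5 and 76.9% (46.2 to 94.96%, 13 UMIs) at E13.5. In muscle spots it was 55.3% (38.3 to 71.4%), 94.1% (83.8 to 98.8%) and 92.4% (87.4 to 95.9%), and in the rest 46.2%, 53.8% and 92.2%. The neural intervals overlapped at E11.5 and E12.5, while the muscle interval at E11.5 lay below those at E12.5 and E13.5. In Alx1-high spots at E11.5 the share was 68.9% (59.1 to 77.7%), above the neural interval. The intervals are exact binomial and cover counting error only.

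**Figure D4:**
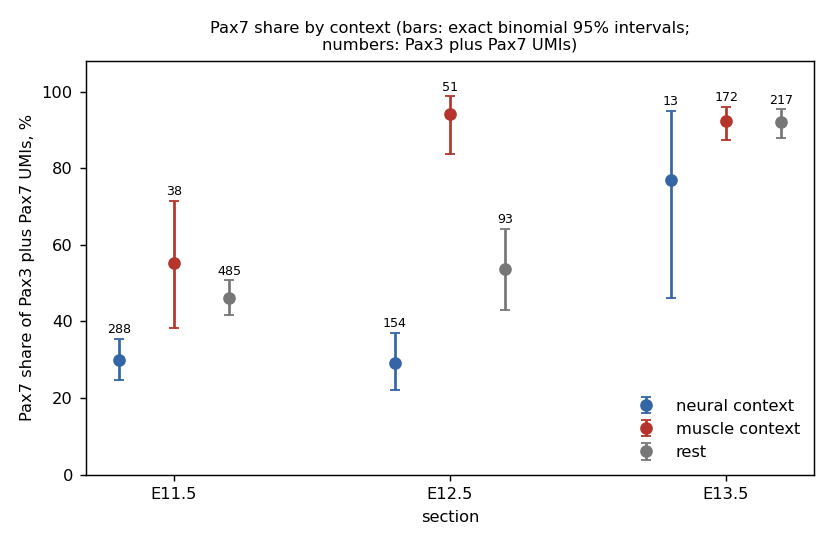
Share of Pax7 in the UMIs of Pax3 plus Pax7, in percent, by section, for the neural context (blue), the muscle context (red) and the rest (grey). Bars are exact 95% binomial intervals and the number above each is the UMI total. The neural points are at 29.9% and 29.2% at E11.5 and E12.5, and the muscle points at 94.1% and 92.4% at E12.5 and E13.5.

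To compare detection, each spot was thinned to 10000 UMIs, leaving out 65, 37 and 220 shallower spots at the 3 stages. Myog was then found in 25.0%, 96.9% and 100% of muscle spots, against 2.29%, 29.0% and 58.2% of the rest, and Pax7 in 1.97%, 20.4% and 30.1% of muscle spots, against 4.77%, 2.69% and 7.86% of the rest. Unthinned, Myog reached 37.5% of muscle spots at E11.5. The E11.5 muscle spots included the heart-rich ones, which held few Myog and Pax7 UMIs, and detection was not counted without them. By level, Pax7 in E11.5 muscle spots without them was 1.16 of the rest (0.696 to 1.84). Spots of other tissues were taken outside both contexts by the lists of those tissues. At E11.5 Myog had a UMI in 2.29% of the rest, against 2 of 74 cartilage spots (2.70%, 0.329 to 9.42%), 0 of 68 liver spots and 0 of 15 heart spots, so the rest was not above the cartilage spots. Within that rest Myod1 and Myog still shared 3 thinned spots against 0.412 expected (ratio 7.27, upper bound 21.3). At E12.5 Myog was found in 29.0% of the rest, against 5 of 48 cartilage spots (10.4%), 7 of 40 spots of the liver list (17.5%) and 15 of 33 spots of the heart list (45.5%). At E13.5 it was found in 58.2% of the rest, against 7 of 37 heart spots (18.9%), 4 of 13 cartilage spots (30.8%) and 31 of 48 spots of the liver list (64.6%). The rest thus lay within the range of these classes at both later stages. Before thinning, median depths were 27269, 23526.5 and 19531.5 UMIs in the rest and 19999, 18395 and 4655 UMIs in cartilage spots. The classes were not free of muscle RNA, since the sarcomere list had 482 CPM in the E12.5 heart-list spots, whose heart list had just 58.5 CPM, and 2324 CPM in the E13.5 liver-list spots. Pax7 had a UMI in 1 of 74 cartilage spots at E11.5, 0 of 48 at E12.5 and 0 of 13 at E13.5.

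Pairs of the 5 muscle genes shared spots more than their separate shares would give. Myod1 and Myog were found together in 19, 142 and 367 thinned spots at the 3 stages, against 1.80, 63.1 and 255 from the product of their shares, ratios of 10.6, 2.25 and 1.44. Myog and Mymk shared 6, 107 and 367 spots, against 0.428, 41.7 and 255. Of the 10 pairs among these 5 genes, 8, 7 and 10 had an interval above 1. Spots are not cells and not replicates, so that the intervals are Poisson intervals of the shared count and no test was made. Inside the muscle context at E13.5 no excess of Myod1 with Myog could be seen, since all 133 spots held Myog and 118 held Myod1. Myf5 and Myf6, found in 37 and 36 of these spots, shared 10 against 10.0 expected (ratio 0.998, 0.479 to 1.84). In E12.5 muscle spots Myf5 and Mymk shared 13 against 12.9 (1.01, 0.538 to 1.73). In E11.5 muscle spots, heart-rich ones included, Myod1 and Myog shared 16 against 5.75 (2.78, 1.59 to 4.52).

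**Figure D5:**
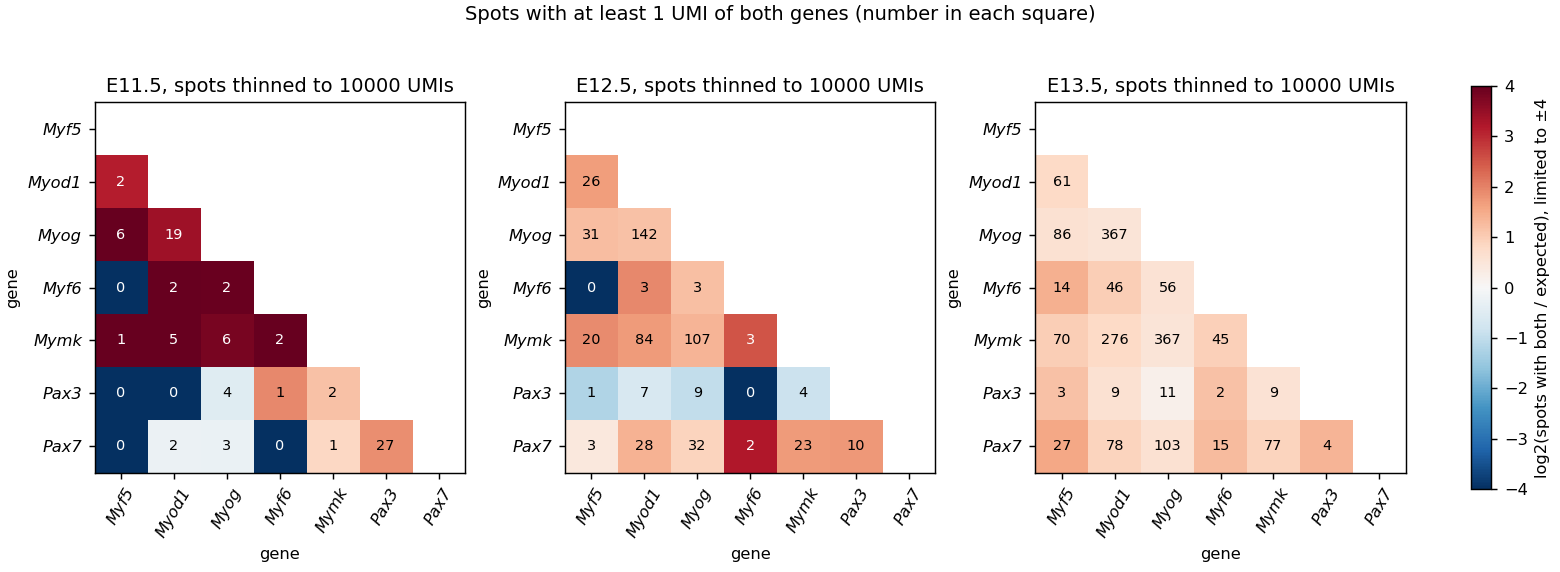
Number of thinned spots with at least 1 UMI of both genes of a pair, printed in each square, for the 3 sections. Colour is the log2 of that number over the number given by the product of the shares, limited to ±4, and squares with 0 spots are drawn at the lower limit. Myod1 and Myog share 19, 142 and 367 spots, and Pax3 with Pax7 27, 10 and 4.

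Over all spots, Pax7 shared spots with the muscle genes at E12.5 and E13.5 beyond the product of the shares. At E11.5 the result depended on depth. Pax7 and Myod1 shared 2, 28 and 78 thinned spots at the 3 stages, against 2.36, 10.6 and 41.7 expected, ratios of 0.848 (0.103 to 3.06), 2.65 (1.76 to 3.83) and 1.87 (1.48 to 2.34). Inside the muscle context no such excess of this pair was seen. There they shared 18 spots at E12.5 against 15.1 expected (0.706 to 1.88) and 34 at E13.5 against 35.5 (0.663 to 1.34). In the rest they shared 10 against 3.01 (1.59 to 6.11) and 41 against 21.7 (1.36 to 2.56) at these stages. Of the Pax7 spots at E13.5, 69.6% held Myod1 and 92.0% Myog. Of the 5 pairs of Pax7 with a muscle gene, 0, 4 and 5 had an interval above 1, and in unthinned spots 3, 5 and 5. Unthinned E11.5 muscle spots with Pax7 were 16 in number, 14 of which held Myog (ratio 2.33, 1.28 to 3.91) and 12 Myod1 (3.08, 1.59 to 5.38), while 3 were left after thinning. The heart list had 1329 CPM in these 16 spots against 7783 CPM in the 136 muscle spots without Pax7. The expected counts thus span heart-rich spots, which held no Myod1 UMI, and their part in these ratios was not tested. Pax3 and Myod1 shared 0, 7 and 9 spots, against 3.71, 10.98 and 5.95 expected, the E11.5 interval ending at 0.995. Unthinned, they shared 8 spots at E11.5 against 14.0 expected (ratio 0.572, 0.247 to 1.13). In unthinned E11.5 muscle spots they shared 7 against 3.65 (1.92, 0.771 to 3.95), and both unthinned intervals held 1. Pax3 and Myog shared 4, 9 and 11, against 5.65, 17.8 and 9.61, with an interval below 1 at E12.5 (ratio 0.506, 0.231 to 0.960). In unthinned spots at E13.5, 4 of the 5 pairs of Pax3 with a muscle gene had an interval above 1, and 0 of 5 in thinned spots.

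Pax3 and Pax7 shared 27 thinned spots at E11.5 against 7.41 expected (ratio 3.64, 2.401 to 5.30), 10 at E12.5 against 2.98 (3.35, 1.61 to 6.16) and 4 at E13.5 against 1.57 (2.54, 0.693 to 6.52). At E11.5, 13 of the 27 lay in neural spots, where 5.92 were expected, and 13 in the rest, where 3.53 were. At E12.5, 9 of the 10 lay in neural spots, against 2.73 expected, and 0 in muscle spots, against 0.408. At these stages the shared spots lay mostly in neural spots or the rest, 1 of the 27 at E11.5 being a muscle spot, while at E13.5 2 of the 4 were muscle spots.

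Correlations over the spots of a section (log2 of UMIs per 10000 plus 1) give the genes of most similar pattern. They describe 1561, 1014 and 1360 spots that share library, depth and tissue. Among 13234 genes, averaged over the sections, Myog was closest to Myh3 (0.79), the embryonic myosin, Tnnc2 (0.77), fast troponin C, and Mymx (0.75), myomerger, the partner of myomaker in fusion. Myod1 was closest to Myog (0.73) and Myh3 (0.69), and Mymk to Tnnc2 (0.75) and Myh3 (0.73). Myf5 and Myf6, with few UMIs, had weaker values, at most 0.46 (Myog) and 0.42 (Tnnc2). Pax3 was closest to Msx3, with 0.56, 0.58 and 0.00 at the 3 stages, where Msx3 had no UMIs at E13.5, and then to Hes5 and Sox2 of neural progenitors. Pax7 had no close pattern, its highest mean being 0.26 with Hes6, and its value with Myod1 was 0.03, 0.31 and 0.42 over the stages.

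Other genes of the pathway were taken from 4 lists. Of 14 differentiation targets (receptor, sarcomere and calcium-handling genes such as Chrna1, Ttn and Ryr1), 14 were higher in muscle spots than in the rest by edgeR's test, against 1.39% of all genes, with a median log2 fold change of 3.16 against -0.03 for all genes, and 12 with the heart-rich spots moved out. Chrng, the fetal subunit of the acetylcholine receptor, had 9.12, 55.1 and 158 CPM in muscle spots at the 3 stages and 0.564, 4.65 and 27.4 CPM in the rest. Des and Ttn of this list are also made in heart, and Ttn had 317 CPM in E11.5 muscle spots. Of 8 fusion and adhesion genes, 2 were higher, again against 1.39% of all genes: Mymx (3.39, adjusted p = 0.00351) and Cdh15, M-cadherin (2.81, adjusted p = 0.00351), and Mymx had 17.1, 174 and 278 CPM in muscle spots. Like the 5 genes above, these calls were lost without E12.5 and without the block.

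Genes upstream of the regulators and their partners were read in the same way. Of 13 upstream genes, 1 was higher in muscle spots than in the rest, against 1.39% of all genes, the repressor Msc (2.16, adjusted p = 0.00902), with 10.3, 50.3 and 126 CPM in muscle spots at the 3 stages and 3.95, 8.29 and 31.2 CPM in the rest. Against muscle spots, 6 of the 13 were lower in neural spots, where 8.86% of all genes were, among them Dmrt2, Meox1, Msc and Meox2. Of 10 partners and modifiers, 0 were higher in muscle spots than in the rest by edgeR's test, 5 having an unadjusted p under 0.05, and DESeq2 called 3. Mef2c, a MEF2 factor that acts with the regulators, had 31.7, 150 and 169 CPM in muscle spots and 15.0, 30.0 and 83.0 CPM in the rest (1.64, adjusted p = 0.0536). Hes6, a regulator found in both muscle and neural precursors, had 230, 220 and 67.3 CPM in neural spots, 87.6, 251 and 197 CPM in muscle spots and 87.2, 77.9 and 89.8 CPM in the rest.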

How the data were processed

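Gene by spot counts of 3 Visium sections were used as the authors deposited them: raw UMI counts from Space Ranger 1.2.0, per the file headers. The submitters' processing notes name STAR and mm10, while the version of STAR and the annotation were not given in the sources used here. Spots under 1000 UMIs were left out (2, 0 and 5 in stage order), and no doublet caller was run, since a spot is not a cell. The 7 genes, the gene lists and the tests were chosen with earlier results of these data known. Named genes were the 7, members of the lists and, for each of the 7, up to 5 genes of the highest mean correlation (at least 200 UMIs, mean of at least 0.2).

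UMIs were summed over 3 sections and 4 contexts (neural, muscle, both, rest), giving 12 sums, and 13747 genes passed filterByExpr, all 7 among them. edgeR 4.0.16 (TMM, quasi-likelihood test, Benjamini-Hochberg) in R 4.3.3 was fitted with the section as the block, because contexts of 1 section share its tissue. The 3 sums of a context are the replicates. As the block takes up level differences between sections, p-values measure how differences between contexts vary from section to section. That spread is estimated over all 4 contexts together, the small context of both included, and the sections differ in stage. DESeq2 1.42.0 was an alternative, beside other scalings, filters, context definitions, left-out sections, a fit without the block and a fit on the compared contexts alone. Levels and ratios carry exact 95% Poisson or binomial intervals, which cover counting error only. Stages were compared without a test. The fitting step was tested on simulated data. Results for some members of the gene lists are not reported here.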

Additional observations from a re-analysis of the deposited data

Results flagged for a closer look

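With the heart-rich spots kept in the muscle context, 5 of the 6 comparisons of contexts for Pax3 and Pax7 changed side between sections. Their ratio lay above 1 in at least 1 section and below 1 in another, with both intervals excluding 1. None of these differences between sections was tested, as each stage has 1 section. Pax7 in neural spots over the rest was 1.69 at E11.5 and 3.15 at E12.5, but 0.252 at E13.5. Pax3 in muscle spots over the rest was 0.412, 0.505 and 3.55 in stage order (E11.5 first). Without the heart-rich spots its E11.5 ratio was 0.748 (0.413 to 1.26), and no interval of this comparison then lay below 1. Pax7 in muscle spots over the rest was 0.594, 6.95 and 3.69. Its E11.5 ratio was 1.16 (0.696 to 1.84) without the heart-rich spots, and no interval then lay below 1. Pax3 in neural over muscle spots was 8.25, 17.6 and 0.250, and Pax7 2.84, 0.453 and 0.0682. In the sixth, Pax3 in neural spots over the rest, the ratio was 3.40, 8.87 and 0.888, the E13.5 interval (0.167 to 3.07) holding 1. Without the heart-rich spots, Pax7 in neural over muscle spots at E11.5 was 1.45 (0.885 to 2.49), and no interval of that comparison then lay above 1.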

How the results depend on the processing

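Over all genes, 1706 were called in neural spots against the rest, 234 in muscle spots against the rest and 2944 in neural against muscle spots by edgeR. Without the replicate block of sections these counts were 0, 0 and 406 (1756, 441 and 2830 at an unadjusted p under 0.05), and all 12 calls of the 7 genes were lost. Leaving out 1 section gave 0 to 4879, 0 to 329 and 445 to 4918 genes, the lowest each time without E12.5 (0, 0 and 445, which ended 8 of the 12 calls) and 419, 208 and 1604 without E11.5. With the compared contexts alone the counts were 1117, 356 and 1143, and with Sox2 alone 56, 603 and 1521. Tubb3 alone gave 3157 genes in neural spots against the rest and 4636 against muscle spots. DESeq2 gave 2765 in neural and 436 in muscle spots against the rest. In muscle spots against the rest, no filter gave 407, the other muscle list 129 and the heart-rich spots left out 137.

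Pax7 in neural spots against the rest had a log2 fold change of -1.47 with Tubb3 alone, against 0.43. Pax3 in muscle spots against the rest, 0.09 as reported, was -0.45 without the replicate block, -0.084 with the compared contexts alone, between -1.001 (without E13.5) and 1.08 (without E11.5) with 1 section left out, and -0.38 with Tubb3 alone. With the 5% boundary 5 of the 12 calls were lost, among them Myf5 (adjusted p = 0.0581), Myod1 (0.0518) and Myog (0.0787) in muscle spots against the rest. DESeq2, another scaling, no filter, a higher minimum of UMIs per spot and Tubb3 alone lost 0 of the 12. The Pax7 share in the rest at E11.5 was 52.6% with the 20% boundary, against 46.2%. Of the shared-spot counts, 57 of 165 moved beyond their interval, 35 of them when 2 UMIs of each gene were asked for. Few UMIs limit the precision for Myf6 at E11.5 and E12.5 (10 and 14) and for Pax3 at E13.5 (34).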
